A study of Mus musculus with 19 samples.

Results

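The collagen gene family was examined in mouse embryonic stem cells lacking Trim71, Lin28a or both. Members were the rows of the deposited table whose symbol is Col, a number, the letter a and a second number. This rule found 38 of 21685 gene symbols: 10 fibrillar, 6 network-forming and 8 FACIT collagens (fibril-associated collagens with interrupted triple helices), 6 beaded-filament collagens of type VI, 4 transmembrane collagens, 2 multiplexins, the anchoring-fibril collagen Col7a1, and Col26a1. The members and the other gene lists were chosen with earlier results of these data known.

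All cells were male C57BL/6 embryonic stem cells grown in fetal calf serum with leukaemia inhibitory factor and enriched by magnetic sorting for SSEA-1, a carbohydrate antigen of undifferentiated mouse cells. The WT-WT cells (Trimfl/fl - Lin28afl/fl, 4 libraries) carried loxP-flanked alleles of both genes, so the controls were conditional cells and not unmodified ones. KO-WT cells (Trim-/- - Lin28afl/fl, 4 libraries) lacked Trim71, WT-KO cells (Trimfl/fl - Lin28a-/-, 5 libraries) lacked Lin28a, and KO-KO cells (Trim-/- - Lin28a-/-, 5 libraries) lacked both. Trim71 mutation was induced with 500 nM 4-hydroxytamoxifen for 2 days, and cells were cultured for at least 7 more days before harvest. The labels list this protocol for all libraries, WT-WT and WT-KO included, without telling the groups apart. The Lin28a-intact libraries came from clones 1 and E3 and the Lin28a-null libraries from clones 1-4 and C1, so Lin28a genotype and clone cannot be told apart. Each harvest day used either clones 1 and 1-4 or clones E3 and C1, and the comparisons below are also given within each of these clone pairs where the call changed. A further KO-WT library held, for each gene, the average of these 4 KO-WT values (to within 1.5e-08) and was left out. It was the only library of its harvest day, and harvest-day effects were already absent from the deposited values. Separate cultures are not named in the labels beyond clone and harvest day, so p-values measure the spread between these libraries.

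Collagens are trimers whose chains share a repeating glycine-containing sequence. Fibrillar collagens assemble into the banded fibres of connective tissue, network-forming type IV collagens build the sheet of basement membranes, and FACIT collagens lie along the surface of fibrils. In the early mouse embryo, type IV collagen is a product of the primitive and parietal endoderm, which lay down the first basement membranes. LIN28A binds precursors of the let-7 microRNAs and blocks their maturation. TRIM71, an RNA-binding ubiquitin ligase, represses mRNAs, and the title of the series concerns its repression of let-7.

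Values are log2 normalised expression as deposited. As a check of the labels, Trim71 averaged 10.21 ± 0.12 (SD, n = 4) for WT-WT libraries and 8.89 ± 0.14 (SD, n = 4) for KO-WT libraries. It averaged 10.65 ± 0.20 (SD, n = 5) for WT-KO and 9.28 ± 0.18 (SD, n = 5) for KO-KO. Lin28a was at 10.13 ± 0.16 and 9.84 ± 0.11 (SD, n = 4 each) in the Lin28a-intact groups, against 8.47 ± 0.09 and 8.28 ± 0.06 (SD, n = 5 each) in WT-KO and KO-KO; its KO-WT minus WT-WT difference of -0.28 was itself called (limma, adjusted p 0.03597). Both genes were thus lower, but not absent, in the libraries labelled null, and whether these rows include reads from outside the deleted exons is not stated. Read counts are not given, so the depth behind each value is unknown.

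A gene was counted as expressed where it reached log2(10), which is 3.32, in at least 4 of the 18 libraries. By that rule 23 of the 38 collagens were expressed: 9 of 10 fibrillar, 3 of 6 network-forming and 4 of 8 FACIT collagens. Expressed fibrillar genes were Col1a1, Col1a2, Col2a1, Col5a1, Col5a2, Col5a3, Col11a1, Col11a2 and Col27a1. In the network class Col4a1, Col4a2 and Col4a5 were expressed, and in the FACIT class Col9a2, Col9a3, Col20a1 and Col22a1. Of the remaining classes, Col6a2, Col6a5, Col7a1, Col13a1, Col17a1, Col18a1 and Col26a1 passed. Col24a1, Col4a6, Col8a1, Col8a2, Col9a1, Col12a1, Col14a1, Col16a1, Col6a1, Col6a3, Col6a4, Col6a6, Col23a1, Col25a1 and Col15a1 stayed below. Col23a1 peaked at 3.19 and Col6a4 at 3.11, just under the floor. Col11a2 reached it in 13 libraries and Col6a2 in 17. Col4a5 (11 libraries) and Col1a2 (9 libraries) passed through the Lin28a-intact groups: all 8 of those libraries were above the floor, against 3 and 1 of the 10 Lin28a-null libraries, all of them KO-KO. Of the collagens on the class lists, Col3a1, Col4a3, Col4a4, Col10a1, Col19a1, Col21a1 and Col28a1 had no row in the table used here.

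Levels between genes were compared per kilobase of 1 GENCODE M21 transcript for each gene, on the log2 scale. Col18a1, the multiplexin whose C-terminal fragment is endostatin, had the highest level in every genotype (8.69 in WT-WT, 8.64 in KO-WT, 8.79 in WT-KO and 8.67 in KO-KO). In WT-WT it was followed by Col4a1 (7.81) and Col4a2 (6.98), the chains of the common type IV trimer, and then by the type IX chains Col9a2 (5.15) and Col9a3 (4.43). In WT-KO the order changed: Col9a2 (5.84) lay above Col4a1 (5.12), and Col9a3 (4.47) above Col4a2 (4.13). In KO-KO, Col9a2 (5.52) and Col4a1 (5.52) were level. Col9a3 shares 6.07% of its exon bases with Tcfl5 on the opposite strand. The library preparation does not mark strand, so reads there cannot be assigned to 1 of these 2 genes. Expressed fibrillar genes were lower, from 3.48 for Col2a1 to 1.20 for Col11a2 in WT-WT. The type IX partner chain Col9a1 was near 0 in every library (highest 0.13 before correction for length), while Col9a2 and Col9a3 were well above the floor in all 18 libraries. Of the type VI genes, Col6a5 was above the floor in all 18 libraries (mean 6.13). Col6a2 lay just above it in 17 of 18 libraries (mean 3.58), and both Col6a1 (highest 1.76) and Col6a3 (highest 3.10) were below it.

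**Figure D1:**
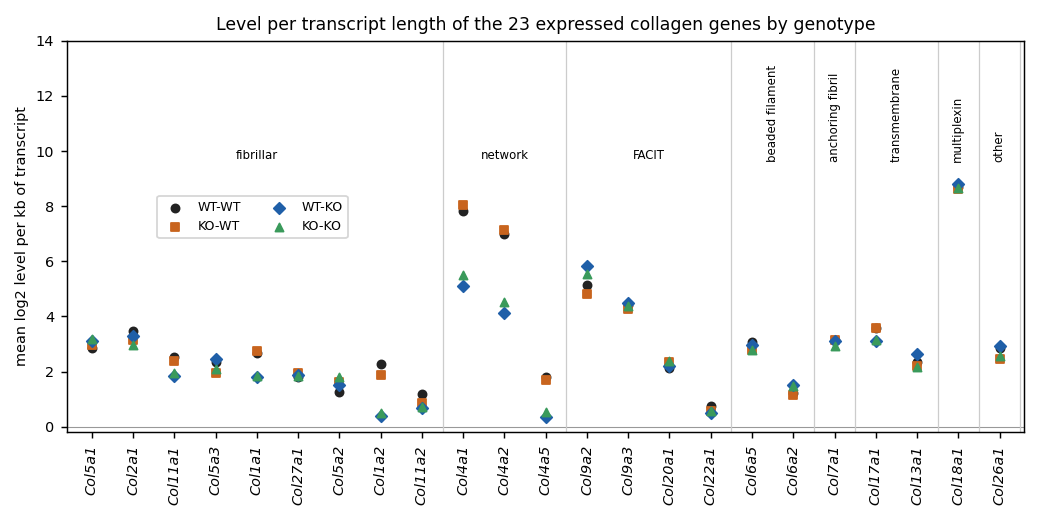
Mean log2 level per kilobase of transcript (vertical axis) of the 23 expressed collagens, ordered by structural class, with 1 symbol for each genotype (4 libraries each for WT-WT and KO-WT, 5 each for WT-KO and KO-KO). Col18a1 lies between 8.64 and 8.79 in all genotypes, while Col4a1 and Col4a2 separate into a Lin28a-intact and a lower Lin28a-null pair of symbols.

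Because LIN28A restrains let-7, the 3′UTRs of the collagens were searched for the complement of the let-7 seed, CTACCTC, on the transcript strand. The seed occupies bases 2 to 8 of the microRNA and is shared by the 8 mouse let-7 5p arms in RefSeq (GRCm38.p6), of which let-7a is shown with its seed in capitals. A match was present in 8 of 38 collagens (21.1%), against 1510 of the 15104 genes of the table with an annotated 3′UTR (10%); the median 3′UTR was 1079.5 and 1062 bases long. Of the expressed members, 5 held 1 match each. Their windows of 30 bases lie in the 3′UTR, are read 5′ to 3′ on the transcript strand from GENCODE M21 (GRCm38), and have the match in capitals.
mmu-let-7a-5p: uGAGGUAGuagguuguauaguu
Col1a1: gtgcaattgtgttgctgaaagaCTACCTCg
Col1a2: cccaaacttccaaaggtttgaaCTACCTCa
Col5a2: acccaacatttcttagcatgacCTACCTCa
Col26a1: gctcttcttttgcccctgccccCTACCTCc
Col27a1: ccctgggctggggtgctgtgtgCTACCTCc
The Col1a1 window is at chr11:94952383-94952412 (+), Col1a2 at chr6:4541055-4541084 (+), Col5a2 at chr1:45375101-45375130 (-), Col26a1 at chr5:136742834-136742863 (-) and Col27a1 at chr4:63333876-63333905 (+). In Col1a2 and Col5a2 the match is followed by an A, opposite the first base of the microRNA. Col14a1, Col23a1 and Col24a1, all under the floor, were the other 3 collagens with a match, and none was found in the 3′UTR of Col4a1, Col4a2 or Col4a5. A match is a run of letters and not a measured site; let-7 levels were not analysed here.

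The comparison of WT-KO with WT-WT asks how collagen expression differs when Lin28a is absent and Trim71 intact. The 3 expressed type IV chains and the 2 type I chains were lower in the Lin28a-null cells, and Col9a2 was higher. In all, 13 of the 23 tested collagens passed an adjusted p of 0.05 (limma, harvest day in the model, Benjamini-Hochberg over all 14988 tested genes), 9 lower and 4 higher; 42.4% of all tested genes were called in this comparison, 22.0% as lower and 20.3% as higher. A difference of at least 1 log2 unit downward was found in 4 called collagens (Col4a2, Col4a1, Col1a2 and Col4a5), whereas 1.25% of all tested genes were both called and that much lower. Col1a2 and Col4a5 passed the filter only through the Lin28a-intact groups, where they are high. Their places in this count, among the 9 lower calls and in the non-overlap count below follow in part from the filter. These counts are not read against the shares over all genes. Over all 38 collagens the median difference was -0.03, against -0.004 over all genes. Of the 23 tested members, 5 lay above and 10 below with no overlap between the groups' libraries, which 20.1% and 20.7% of all tested genes did.

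The classes differed in their counts. All 3 tested network chains were called lower, with a median difference of -0.95 over the 6 network genes in the table. Among the fibrillar genes 4 of 9 were called lower and 1 higher (median -0.07 over 10). Of the 4 tested FACIT genes, 1 was called higher and 1 lower (median -0.02 over 8). The difference between classes was not tested, and the network class rests on 3 chains of 1 collagen type. Col4a5 in the network count and Col1a2 in the fibrillar count passed the filter only through the Lin28a-intact groups. Their lower calls thus follow in part from the filter.

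Col4a1 (chr8:11198423-11312826, minus strand, GRCm38) encodes the α1 chain of type IV collagen. Its levels were 10.26, 10.73, 10.63 and 10.52 in the WT-WT libraries and 7.58, 7.94, 8.09, 8.07 and 7.52 in WT-KO. In KO-WT they were 10.83, 10.55, 10.59 and 11.04, and in KO-KO 8.78, 8.07, 8.0, 8.07 and 8.29. The Lin28a-intact and Lin28a-null libraries did not overlap, and the highest null value was KO-KO replicate 1. Col4a1 fell by 2.69 log2 units (SE 0.17, 6.46-fold, adjusted p 7.289e-09) in WT-KO, and was lower in 4 of 4 day-matched pairs.

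Its partner chain Col4a2 (chr8:11312805-11449287, plus strand) starts 21 bases from Col4a1 on the opposite strand, and 22 bases of their exons overlap. Col4a2 was at 9.38, 9.81, 9.76 and 9.74 in WT-WT and at 6.55, 6.72, 7.32, 6.98 and 6.53 in WT-KO. The values were 9.94, 9.66, 9.66 and 10.06 in KO-WT and 7.77, 7.19, 6.73, 7.11 and 7.20 in KO-KO, again with no overlap between Lin28a-intact and Lin28a-null libraries. The drop of 2.85 log2 units (SE 0.19, 7.21-fold, adjusted p 1.137e-08) was the largest among the collagens in this comparison. The library preparation does not mark strand, so reads within the shared 22 bases cannot be assigned to 1 of the pair. The shared bases make up 0.295% of the Col4a1 exon bases. Another 0.650% of the Col4a2 exon bases are shared with Gm15419 on the opposite strand. Per kilobase, Col4a1 exceeded Col4a2 by 0.83 ± 0.06 log2 units for WT-WT and 0.89 ± 0.05 for KO-WT (SD, n = 4 each), and by 0.99 ± 0.16 for WT-KO and 1.00 ± 0.15 for KO-KO (SD, n = 5 each). These ranges overlapped between all 4 genotypes.

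Col4a5 (chrX:141475385-141689234, plus strand), a chain of the glomerular and smooth-muscle type IV collagen, was much less abundant. Its levels were 4.41, 4.38, 4.51 and 4.70 in WT-WT and 3.02, 3.21, 3.08, 3.11 and 2.84 in WT-KO, a drop of 1.45 (SE 0.10, adjusted p 1.944e-08). KO-WT libraries were at 4.40, 4.42, 4.54 and 4.31 and KO-KO libraries at 3.37, 3.10, 3.32, 3.06 and 3.36. As with the other type IV chains, every Lin28a-null library was below every intact one. Its neighbour Col4a6, which starts 1343 bases away on the opposite strand, was under the floor (highest value 1.59). A fit with no filter on low values, in which 19.1% of all 21685 genes were called lower and 17.1% higher, gave Col4a6 a difference of -0.44 (adjusted p 0.0001143). In that fit Col8a1 (-0.43), Col12a1 (-0.44), Col16a1 (-0.42) and Col6a1 (-0.23) were also called lower, and Col8a2 (0.31) and Col23a1 (0.38) higher; all of these stayed under the floor in every library.

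The chains of type I collagen, the main fibrillar collagen of bone and skin, were lower to unequal extents. Col1a1 (chr11:94936224-94953042, plus strand) was at 5.10, 5.11, 5.25 and 5.57 in WT-WT and at 4.23, 4.30, 4.60, 4.41 and 4.40 in WT-KO. In KO-WT it was at 5.29, 5.53, 5.32 and 5.18, and in KO-KO at 4.73, 4.53, 4.15, 4.40 and 4.24. The drop in WT-KO was 0.87 (SE 0.13, 1.82-fold, adjusted p 7.991e-05), and the intact and null libraries did not overlap. Col1a2 (chr6:4505493-4541544, plus strand) was at 4.48, 4.60, 4.56 and 5.11 in WT-WT and at 2.60, 3.04, 2.88, 2.89 and 2.66 in WT-KO. It was at 4.29, 4.34, 4.51 and 4.10 in KO-WT and at 3.36, 2.72, 2.92, 2.79 and 2.88 in KO-KO. Col1a2 fell by 1.88 (SE 0.15, 3.67-fold, adjusted p 1.108e-07) in WT-KO, and again no intact library overlapped a null one.

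Functional type I collagen contains α1 chains in excess of α2. Per kilobase, Col1a1 exceeded Col1a2 by 0.31 to 0.54 log2 units in the 4 WT-WT libraries and by 0.67 to 1.04 in the 4 KO-WT libraries. The gap was 1.11 to 1.59 in the 5 WT-KO libraries and 1.07 to 1.66 in the 5 KO-KO libraries. So the gap was wider in every Lin28a-null library than in any intact one, and wider in every KO-WT than in any WT-WT library. This was chosen after the values were seen and is given without a test; Col1a2 is near the floor in the null cells.

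Another 4 genes were lower after Lin28a loss. Col11a1, a minor fibrillar chain that nucleates fibrils in cartilage, was at 5.47, 5.41, 5.53 and 5.52 in WT-WT and at 4.62, 4.83, 4.89, 4.75 and 4.81 in WT-KO. That is a difference of -0.70 (SE 0.08, adjusted p 3.819e-06), with all WT-KO libraries below all WT-WT libraries. Col11a2, its partner, was lower by 0.53 (SE 0.12, adjusted p 0.002206). Col17a1, the hemidesmosomal transmembrane collagen of epithelia, was lower by 0.45 (SE 0.08, adjusted p 0.0004643). Col22a1, a FACIT collagen of tissue junctions, was lower by 0.24 (SE 0.09, adjusted p 0.041). The Col22a1 call was lost on leaving out any of 10 of the 18 libraries (adjusted p up to 0.1557).

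In the opposite direction, 4 collagens were higher. The FACIT chain Col9a2 (chr4:121039385-121055322, plus strand), known from cartilage, was at 6.78, 6.60, 6.76 and 6.63 in WT-WT and at 7.32, 7.50, 7.46, 7.25 and 7.41 in WT-KO, a rise of 0.69 (SE 0.10, 1.62-fold, adjusted p 4.436e-05). In KO-WT it was at 6.23, 6.26, 6.67 and 6.36, and in KO-KO at 7.05, 7.11, 7.21, 6.85 and 7.13. All Lin28a-null libraries were above all intact ones. Col13a1, a transmembrane collagen of neuromuscular junctions, was higher by 0.31 (SE 0.08, adjusted p 0.005366), Col6a2 by 0.29 (SE 0.10, adjusted p 0.03097) and Col5a1, a fibrillar chain that limits fibril width, by 0.26 (SE 0.06, adjusted p 0.004575). The Col6a2 call was lost without WT-WT replicate 1, 2 or 3 or WT-KO replicate 2, 3 or 4 (adjusted p up to 0.1033). Within either clone pair, where fewer libraries entered the fit, Col13a1, Col5a1, Col6a2 and Col22a1 kept their direction and lost the call. The adjusted p in clones E3 and C1 was 0.1106 for Col13a1 and 0.1274 for Col5a1, and in clones 1 and 1-4 it was 0.09351 and 0.09998.

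Col18a1 illustrates the members without a call. It was at 11.05, 11.01, 11.01 and 11.07 in WT-WT and at 11.12, 11.23, 11.16, 11.03 and 11.14 in WT-KO. The difference was 0.10 with a 95% interval from -0.0034 to 0.20 (adjusted p 0.1102), and it was called without WT-KO replicate 4 (0.14, adjusted p 0.02924). Col7a1, the anchoring-fibril collagen of skin, differed by -0.03 (95% interval -0.26 to 0.21). For Col9a3 the value was 0.05 (-0.12 to 0.22), and for Col27a1, a fibrillar chain of developing cartilage, 0.07 (-0.14 to 0.27). These intervals leave room for modest differences in either direction.

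**Figure D2:**
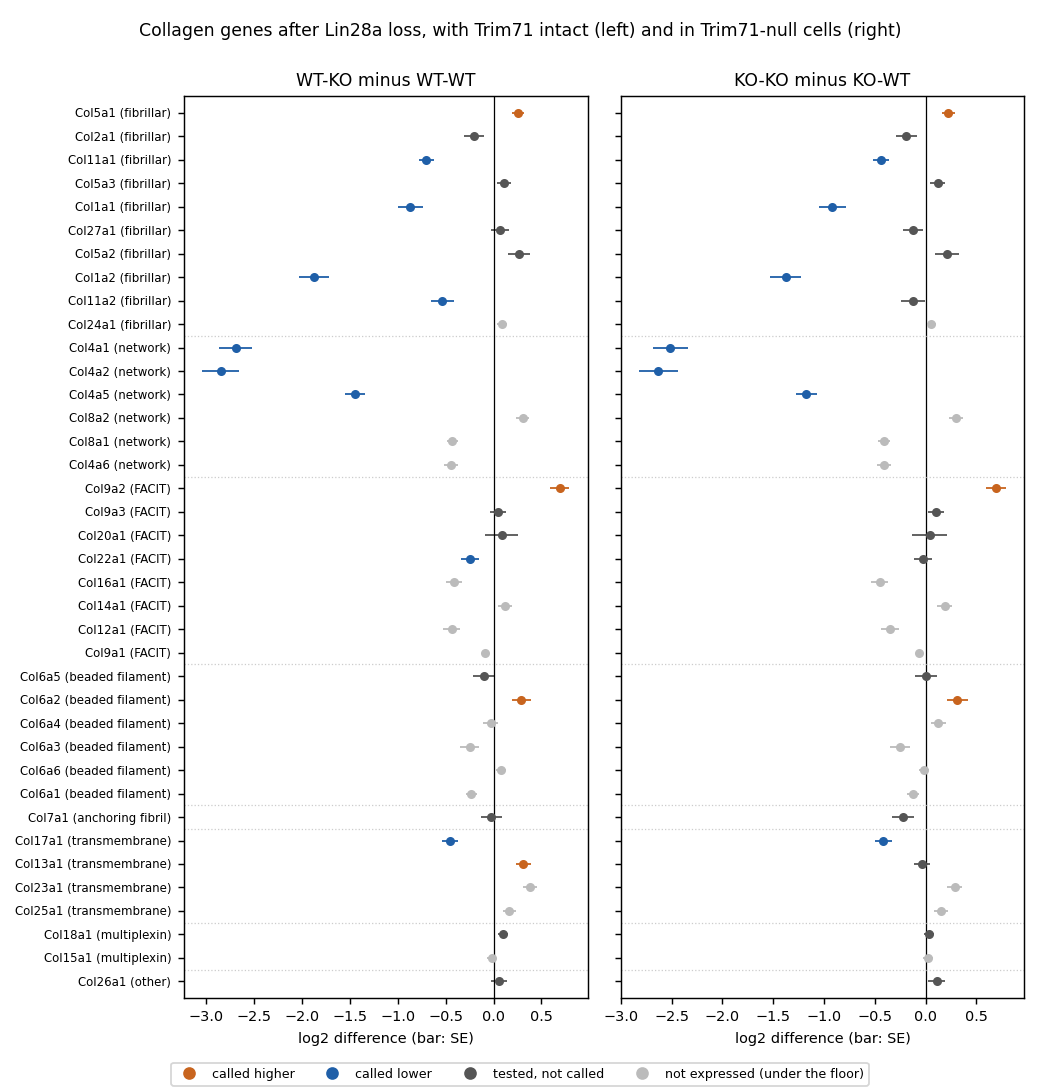
Log2 difference (horizontal axis, bar SE) of each of the 38 collagens between Lin28a-null and Lin28a-intact cells, in Trim71-intact cells (left) and Trim71-null cells (right), ordered by class. Col4a1 and Col4a2 lie beyond -2.5 in both panels and Col9a2 at 0.69 in both; grey points are genes under the expression floor, taken from the fit without a filter.

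The comparison of KO-KO with KO-WT asks the same of Lin28a loss in cells without Trim71. It shares no library with the one above, but the clones, the harvest days and the fit are shared. Both comparisons set the same Lin28a-null clones against the same Lin28a-intact clones. A lasting difference between these clones would enter both, so calls found in both are not separate evidence on Lin28a loss. Of 23 tested collagens 10 were called, 7 lower and 3 higher, where 42.8% of all tested genes were called (22.0% lower, 20.8% higher). Col1a2 and Col4a5, which passed the filter only through the Lin28a-intact groups, are among the 7. The lower calls and the non-overlap below are therefore not read against the shares over all genes. Groups did not overlap in 2 of the tested members (above) and 7 (below), against 19.8% and 20.8% of all tested genes. All 10 were among the 13 called in WT-KO minus WT-WT, with the same direction: Col4a1, Col4a2, Col4a5, Col1a1, Col1a2, Col11a1 and Col17a1 were lower, and Col9a2, Col5a1 and Col6a2 higher. Col4a2 fell by 2.63 (SE 0.19, adjusted p 2.795e-08) and Col4a1 by 2.51 (SE 0.17, adjusted p 1.418e-08). Col1a2 fell by 1.38 (SE 0.15, adjusted p 3.197e-06), Col4a5 by 1.17 (SE 0.10, adjusted p 2.29e-07) and Col1a1 by 0.92 (SE 0.13, adjusted p 4.507e-05). Col9a2 rose by 0.69 (SE 0.10, adjusted p 4.446e-05), the same size as with Trim71 intact. Col11a2, Col22a1 and Col13a1, which were called above, differed here by -0.12, -0.03 and -0.04 without a call.

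By class, all 3 tested network genes were called lower (median -0.79 over 6), 3 of 9 fibrillar genes lower and 1 higher (median -0.12 over 10), and 1 of 4 FACIT genes higher (median 0.01 over 8). As above, Col4a5 in the network count and Col1a2 in the fibrillar count passed the filter only through the Lin28a-intact groups. The median was -0.03 over all 38 collagens and 0.0013 over all genes. The smaller clone pair, 1 and 1-4, holds 1 KO-WT library, which is assumed to vary like the others. In the fit without a filter (19.1% of all genes lower, 18.3% higher), the members under the floor called above were called again in the same direction, other than Col6a1 (-0.12, adjusted p 0.09121). Within clones 1 and 1-4 the calls of Col1a1 (-0.67, adjusted p 0.113), Col1a2 (-0.95, adjusted p 0.0532), Col11a1 (-0.35, adjusted p 0.2007) and Col17a1 (adjusted p 0.07533) were lost. Col4a1 (-2.56), Col4a2 (-2.61), Col4a5 (-0.92) and Col9a2 (0.74) passed in that pair as they did in clones E3 and C1 (-2.61, -2.74, -1.29 and 0.67). Col5a1 and Col6a2 lost the call in both pairs. Over all clones, Col6a2 lost its call without KO-WT replicate 1 or KO-KO replicate 5 (adjusted p up to 0.09477).

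**Figure D3:**
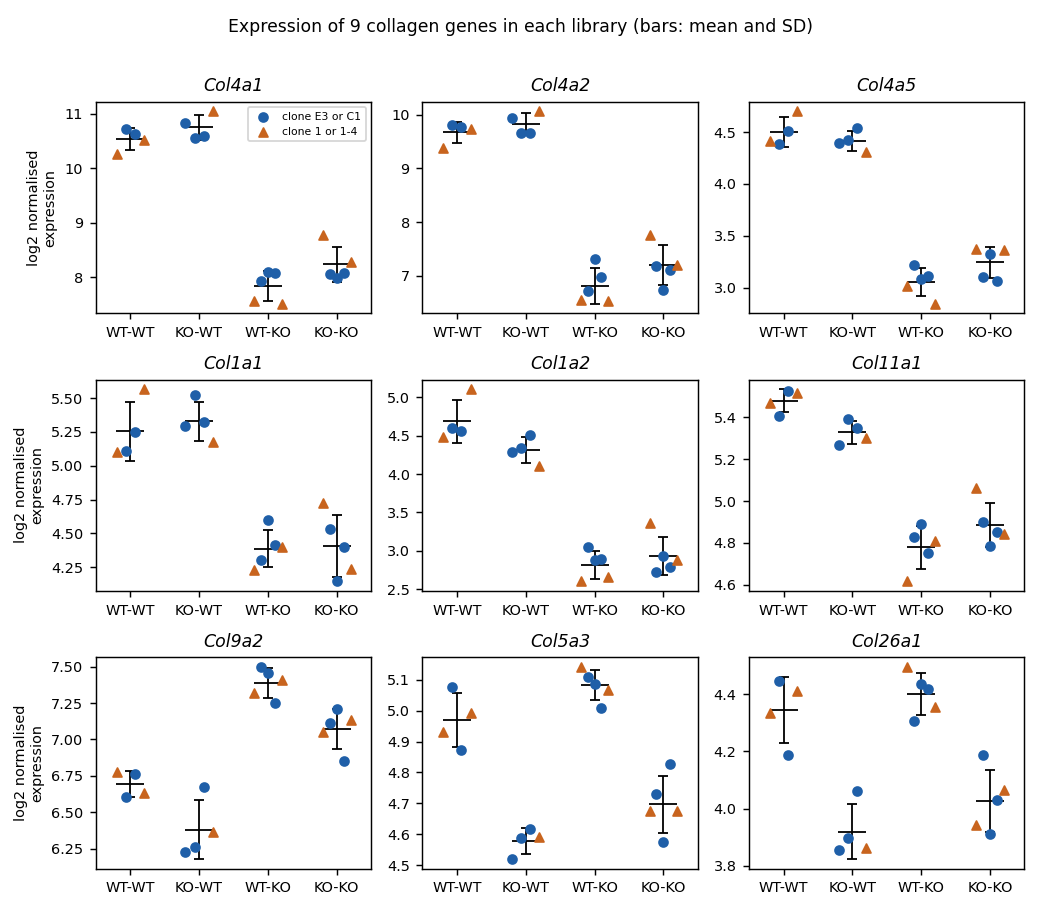
Log2 normalised expression (vertical axis, own scale in each panel) of 9 collagens in each of the 18 libraries by genotype; circles are clones E3 and C1, triangles clones 1 and 1-4, and black bars show the mean and SD. Type IV and type I genes form a high Lin28a-intact and a low Lin28a-null level, Col9a2 shows the opposite order, and Col5a3 and Col26a1 are lower in the Trim71-null groups.

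Trim71 loss with Lin28a intact, KO-WT against WT-WT, was accompanied by small differences. Of 23 tested collagens 2 were called, both lower, against 11.2% of all tested genes called in either direction and 6.43% called lower (4.74% higher). Without overlap between groups, 1 of the tested members lay above and 4 below, as did 13.0% and 15.3% of all tested genes. The 38 differences lay between -0.43 and 0.35 log2 units, with a median of -0.06 beside -0.0065 over all genes. Col5a3, a fibrillar type V chain, was at 4.93, 5.08, 4.87 and 4.99 in WT-WT and at 4.52, 4.59, 4.62 and 4.59 in KO-WT. It fell by 0.39 (SE 0.08, 1.31-fold, adjusted p 0.007495), and no KO-WT library reached a WT-WT one. Col26a1, which encodes an emilin-related collagen, was at 4.34, 4.45, 4.19 and 4.41 in WT-WT and at 3.86, 3.90, 4.06 and 3.86 in KO-WT, a drop of 0.43 (SE 0.09, 1.34-fold, adjusted p 0.01099) without overlap. Neither gene was called when only WT-WT and KO-WT libraries, or only the days with all 4 genotypes, entered the fit. Without KO-WT replicate 3 the count rose to 5, adding Col2a1 (-0.47), Col9a2 (-0.46) and Col6a5 (-0.42).

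The KO-KO minus WT-KO comparison, Trim71 loss in Lin28a-null cells, shares no library with the previous one. It called 5 of 23 collagens, all lower, against 8.38% of all tested genes (4.12% lower, 4.26% higher). 0 of the tested members lay above and 5 below without overlap, as did 6.05% and 6.55% of all tested genes. Col5a3 and Col26a1, the 2 genes called with Lin28a intact, were called here as well. Col5a3 was at 5.14, 5.11, 5.09, 5.01 and 5.07 in WT-KO and at 4.68, 4.73, 4.58, 4.83 and 4.68 in KO-KO, a drop of 0.39 (SE 0.07, adjusted p 0.002254). Col26a1 was at 4.49, 4.31, 4.44, 4.42 and 4.36 in WT-KO and at 3.94, 4.19, 3.91, 4.03 and 4.06 in KO-KO, a drop of 0.38 (SE 0.08, adjusted p 0.007462). Neither gene overlapped between the groups compared, and both were lower in 5 of 5 day-matched pairs. The calls of both were lost on the days with all 4 genotypes.

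Col13a1 had the largest drop in this comparison, 0.49 (SE 0.07, adjusted p 0.000875). Its levels were 4.44, 4.18, 4.29, 4.41 and 4.27 in WT-KO and 3.70, 3.98, 3.88, 3.71 and 3.89 in KO-KO; the KO-WT and WT-WT values, 3.86, 3.88, 3.91 and 3.82 against 4.02, 3.98, 3.99 and 4.05, did not overlap either, but lay closer together and were not called. Col2a1, the main fibrillar collagen of cartilage, was lower by 0.33 (SE 0.10, adjusted p 0.0471) and Col9a2 by 0.31 (SE 0.09, adjusted p 0.0444). Those 2 calls were lost without 14 and 12 of the 18 libraries respectively (adjusted p up to 0.1343 and 0.1174). The count was 3 without any 1 of 11 libraries: WT-WT replicates 1, 2 and 4, WT-KO replicates 1, 2 and 5, KO-KO replicates 1, 2, 4 and 5, and KO-WT replicate 4. It was 6 without KO-WT replicate 3, which added Col18a1 (-0.12).

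Within clone pairs the genes called for Trim71 loss kept their direction and lost the call. For Col5a3 in KO-WT minus WT-WT the difference was -0.40 (adjusted p 0.1659) in clone E3 and -0.37 (adjusted p 0.227) in clone 1. In KO-KO minus WT-KO it was -0.36 (adjusted p 0.1699) in clone C1 and -0.43 (adjusted p 0.09996) in clone 1-4. For Col26a1 the 4 values were -0.37, -0.52, -0.34 and -0.42, with adjusted p from 0.1297 to 0.2295.

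The type IV chains differed between clone pairs in their response to Trim71 loss. Over all libraries of KO-KO minus WT-KO, Col4a1 differed by 0.40 (adjusted p 0.1394) and Col4a2 by 0.38 (adjusted p 0.2135). In clone 1-4 alone the KO-KO libraries exceeded the WT-KO libraries by 0.98 for Col4a1 (adjusted p 0.01233) and by 0.94 for Col4a2 (adjusted p 0.02973). In clone C1 the values were 0.0096 (adjusted p 0.9809) and 0.005 (adjusted p 0.9953). With Lin28a intact, clone 1 gave 0.70 (adjusted p 0.07529) and 0.54 (adjusted p 0.2285) and clone E3 gave -0.04 for both genes. The FACIT gene Col20a1 was likewise 0.88 higher in clone 1 (adjusted p 0.02359) and -0.13 in clone E3. These genes were singled out after their values were seen, clone 1 holds 1 KO-WT library, and the difference between clones was not tested. The summed primitive endoderm markers, 13 genes described at the end, moved in the same way. These sums rest mainly on the matrix genes Sparc, Lamc1, Lamb1, Lama1 and Nid1, the most abundant on the list. In clone 1-4 the sums were 9688.24 and 8905.47 in WT-KO and 11432.57 and 11467.64 in KO-KO, and in clone 1 they were 14354.93 and 14270.29 in WT-WT and 16993.47 in KO-WT. In clone C1 the WT-KO sums (9826.09 to 10489.96) overlapped the KO-KO sums (10057.13 to 10988.8), as did those of WT-WT and KO-WT in clone E3. Their part in the type IV values was not tested.

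Transcript GC content went with the KO-WT minus WT-WT difference, but not with the other comparison for Trim71 loss, KO-KO minus WT-KO. Across 14724 tested genes with a GC value, the rank correlation of GC content with the KO-WT minus WT-WT difference was 0.51. It was 0.0089 for KO-KO minus WT-KO, 0.25 for WT-KO minus WT-WT and 0.24 for KO-KO minus WT-WT. For KO-KO minus KO-WT it was -0.10 and for the interaction -0.51. These values are given as a description, since all genes share the same libraries. The expressed collagens had a median GC content of 58.9%, against 50.1% over the table. With the dependence on GC content and length taken out of every library, KO-WT minus WT-WT called 5 collagens, beside 7.61% of the 14724 genes: Col5a3 (-0.45), Col26a1 (-0.53), Col2a1 (-0.42) and Col9a2 (-0.43) lower, and Col5a2 (0.41) higher. In the same fit Col5a1 lost its call in KO-KO minus KO-WT (0.14, adjusted p 0.115), and Col7a1 was called lower in KO-KO minus KO-WT (-0.27) and KO-KO minus WT-WT (-0.28). Among members not called in the main fit, it also called Col18a1 lower in KO-KO minus WT-KO (-0.13) and KO-KO minus WT-WT (-0.10). Col2a1 was called lower (-0.26) and Col5a2 higher (0.28) in WT-KO minus WT-WT, and Col13a1 (-0.23) and Col22a1 (-0.25) lower in KO-KO minus WT-WT.

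**Figure D4:**
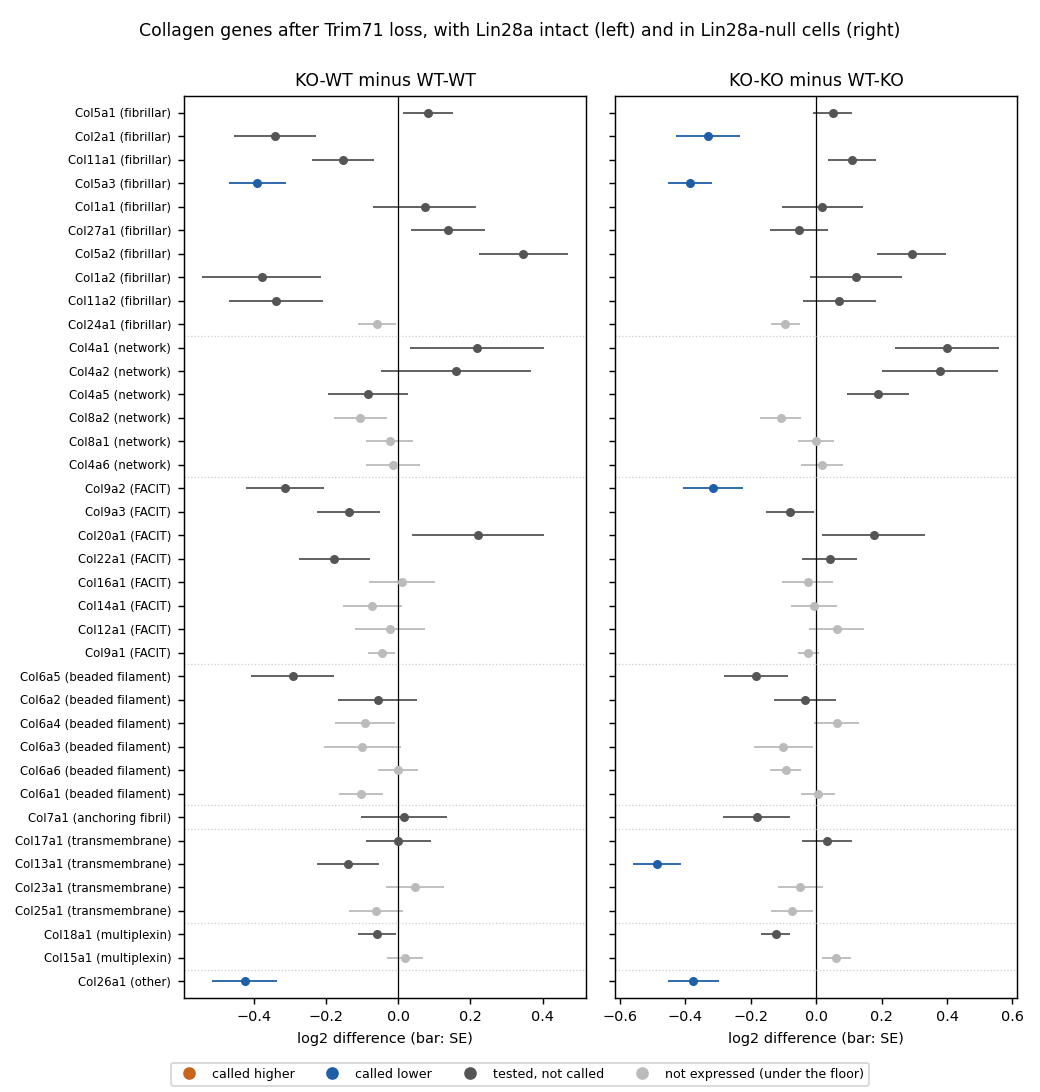
Log2 difference (horizontal axis, bar SE) of each of the 38 collagens between Trim71-null and Trim71-intact cells, with Lin28a intact (left) and in Lin28a-null cells (right), ordered by class. All differences lie between -0.49 and 0.40; Col5a3 and Col26a1 are called lower in both panels.

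In the double mutant, KO-KO against WT-WT, 15 of 23 collagens were called, 12 lower and 3 higher, where 45.6% of all tested genes were called (24.6% lower, 21.0% higher). 3 tested members lay above and 11 below without overlap, beside 20.8% and 23.6% of all tested genes. This comparison shares its controls with 2 of those above, so its values are set beside them and not counted as further evidence. Col1a2 and Col4a5 are again in its lower counts in part through the filter. Col4a2 (-2.47), Col4a1 (-2.29), Col1a2 (-1.75), Col4a5 (-1.26), Col1a1 (-0.85) and Col11a1 (-0.59) were lower, as were Col2a1 (-0.53), Col11a2 (-0.46), Col17a1 (-0.42), Col26a1 (-0.32), Col6a5 (-0.29) and Col5a3 (-0.27). Col5a2, a type V chain with a let-7 seed match, was higher: it was at 3.90, 3.98, 4.05 and 4.03 in WT-WT and at 4.72, 4.63, 4.31, 4.58 and 4.51 in KO-KO, a rise of 0.56 (SE 0.11, adjusted p 0.0009954) without overlap. The single mutants lay between, at 4.33, 4.20, 4.45 and 4.39 in KO-WT and at 4.18, 4.19, 4.65, 4.07 and 4.20 in WT-KO, neither called against WT-WT. Col9a2 (0.38) and Col5a1 (0.31) were also higher. Fibrillar genes gave 6 lower and 2 higher calls of 9 (median -0.37 over 10), network genes 3 lower calls of 3 (median -0.84 over 6) and FACIT genes 1 higher call of 4 (median -0.07 over 8), beside a median of -0.0116 over all genes. In clones E3 and C1 alone Col5a2 (0.48, adjusted p 0.08052), Col2a1 (-0.50, adjusted p 0.06129), Col17a1 (-0.39, adjusted p 0.06989) and Col9a2 (0.38, adjusted p 0.1325) kept their direction and lost the call. Col11a2 did so in clones 1 and 1-4 (-0.53, adjusted p 0.08464), and Col26a1, Col5a1, Col5a3 and Col6a5 in both clone pairs, with adjusted p from 0.05062 to 0.2293. Col20a1 (0.44) and Col6a2 (0.41), not called over all clones, were called higher in clones 1 and 1-4 alone. The Col6a5 call was lost without KO-KO replicate 2, 4 or 5 or WT-WT replicate 2, 3 or 4 (adjusted p up to 0.1309).

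Whether Trim71 loss had a different effect with and without Lin28a was tested as an interaction. No collagen passed; the lowest adjusted p, 0.2333 for Col13a1, went with an interaction of -0.35 (SE 0.11, limma). At an unadjusted p under 0.05 there were 4 of 23: Col13a1, Col11a2 (0.41), Col11a1 (0.26) and Col1a2 (0.50). The share of all tested genes at that unadjusted threshold was not counted, so the 4 are not read as an excess. At an adjusted p under 0.05, 3 of all tested genes were called, which is 0.0200%. Without harvest day in the model 1 collagen passed, Col13a1 (adjusted p 0.0373). The 95% interval for Col4a1 ran from -0.34 to 0.70 and that for Col4a2 from -0.36 to 0.80, so an interaction of moderate size in the type IV chains was not detectable with these libraries.

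Members with and without a let-7 seed match were set side by side. Of the 5 tested genes with a match, 2 were called lower and none higher in WT-KO minus WT-WT (Col1a1 and Col1a2), and 7 lower and 4 higher of the 18 without one. Over all tested genes 22.0% were called lower and 20.3% higher. Col1a2 among the genes with a match and Col4a5 among those without passed the filter only through the Lin28a-intact groups. The median difference was 0.08 over the 8 collagens with a match and -0.09 over the 30 without. In KO-KO minus WT-WT, 3 were called lower and 1 higher of the 5, and 9 lower and 2 higher of the 18. There 24.6% of all tested genes were lower and 21.0% higher. In WT-KO minus WT-WT, Col5a2, Col26a1 and Col27a1 had differences of 0.27, 0.06 and 0.07 with no call, and the chains with the largest drops, Col4a1 and Col4a2, held no match. Only this match to bases 2 to 8 was searched, and a link between matches and differences was not tested.

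Collagen chains are hydroxylated, folded, exported, trimmed and cross-linked by a dedicated set of proteins. Of 50 such genes on a list written with earlier results of these data known, 44 were in the table and 34 passed the floor. In WT-KO minus WT-WT, 27 of the 34 were called, 22 lower and 5 higher, beside the 42.4% of all tested genes; the median over the 44 was -0.23. In KO-KO minus KO-WT it was 21 (18 lower and 3 higher), beside 42.8% of all tested genes (22.0% lower, 20.8% higher), with a median of -0.17.

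Among the hydroxylases, which prepare the chains for triple-helix formation, 6 of 8 tested genes were lower in WT-KO: P4ha2 by 1.18 (SE 0.13), P4ha1 by 0.82 (SE 0.15) and Plod2 by 0.70 (SE 0.10) had the largest changes. All 6 chaperones and folding partners were lower in WT-KO and 4 of 6 in KO-KO minus KO-WT, where Fkbp10 (-0.23) and Fkbp14 (-0.05) were not called. The largest difference was that of Serpinh1, the collagen-specific chaperone HSP47, with -1.28 (SE 0.10, adjusted p 9.06e-08) in WT-KO and -1.45 (SE 0.10) in KO-KO minus KO-WT. Of the propeptide-processing genes, the procollagen C-proteinase Bmp1 was lower by 2.16 (SE 0.13), whereas its enhancers Pcolce (0.38) and Pcolce2 (0.59) and the N-proteinase Adamts14 (0.20) were higher. In KO-KO minus KO-WT Adamts14 (0.01) was not called. In the cross-linking group the lysyl oxidase Loxl2 was lower by 2.06 (SE 0.16) and Loxl4 by 0.37, Loxl1 was higher by 0.22, Loxl3 was not called, and Lox itself was under the floor. Loxl1 (0.04) was not called in KO-KO minus KO-WT.

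Collagen receptors were also lower in part. Itgb1, the β1 subunit common to the collagen-binding integrins, fell by 0.84 (SE 0.06, adjusted p 1.114e-08), Itga1 by 0.89 (SE 0.13) and the receptor tyrosine kinase Ddr1 by 0.36 (SE 0.08), while Itga10 rose by 0.24 (SE 0.07). The gelatinases Mmp9 (-0.96) and Mmp2 (-0.32) were lower. Trim71 loss changed 2 of the 34 genes with Lin28a intact, beside 11.2% of all tested genes: the chaperone Fkbp10 was higher (0.41, adjusted p 0.02235) and the export factor Mia3 lower (-0.34, adjusted p 0.0452). In Lin28a-null cells it changed 5, beside 8.38% of all tested genes: Fkbp10 (0.47), P3h4 (0.39), Pcolce2 (0.25) and Itga1 (0.44) were higher and Adamts14 (-0.29) lower.

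**Figure D5:**
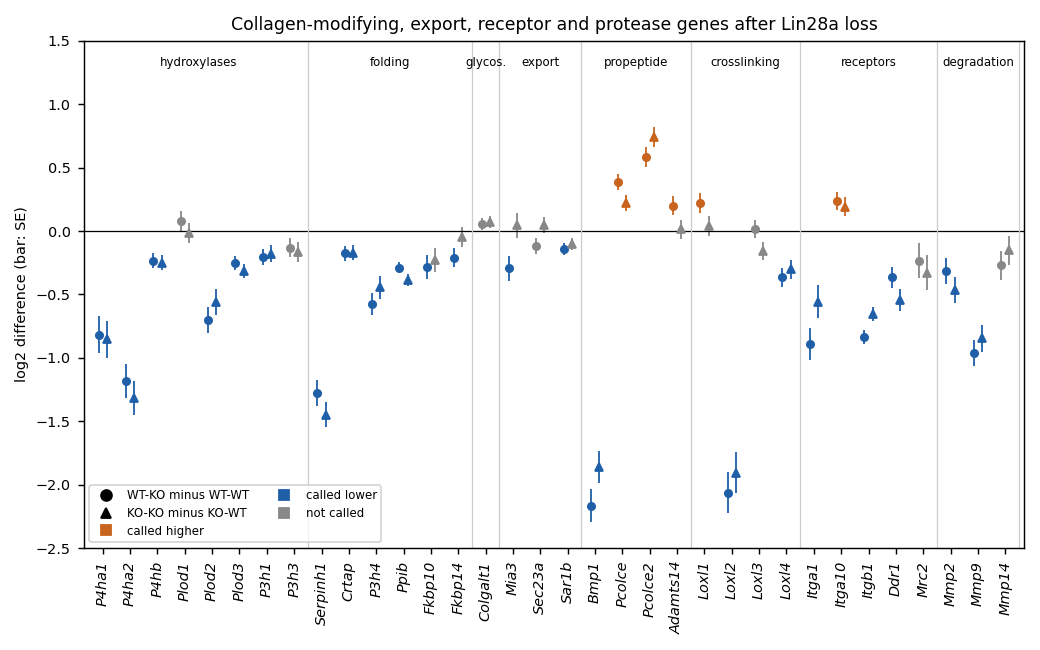
Log2 difference (vertical axis, bar SE) of the 34 expressed genes that modify, fold, export, trim, cross-link, bind or degrade collagen, after Lin28a loss with Trim71 intact (circles) and in Trim71-null cells (triangles). Bmp1 and Loxl2 lie near -2 and Serpinh1 and P4ha2 below -1, while Pcolce and Pcolce2 are called higher.

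Markers of other cell types moved with Lin28a genotype. In WT-KO minus WT-WT, 22.0% of all tested genes were called lower and 20.3% higher. Of 13 primitive endoderm markers 10 were expressed, and 9 of these were called lower and 1, Nid1, higher in WT-KO minus WT-WT; Dab2 changed by -2.78, Srgn by -2.53, Gata4 by -1.60 and Gata6 by -1.34, while Foxa2 and Thbd were under the floor in every library and Sox17 reached it in too few libraries to be tested (highest 3.59, in KO-WT). The summed linear level of the list was 14270.3 to 15466 in WT-WT, 15119.2 to 16993.5 in KO-WT, 8905.5 to 10490 in WT-KO and 10057.1 to 11467.6 in KO-KO. These sums mainly follow the matrix genes Sparc, Lamc1, Lamb1, Lama1 and Nid1 (log2 means 12.60, 11.85, 11.23, 10.32 and 9.84 in WT-WT). The transcription factors Gata4 (6.44) and Gata6 (4.67) add little to them. Trophectoderm or simple-epithelium markers were lower in 6 of 7 expressed genes (Krt8 changed by -4.22), and Tfap2c (0.13) was not called. Their sums were 4688.2 to 6271.9 in WT-WT and 1093.1 to 1324.4 in WT-KO. In WT-WT the sums rest mainly on the keratins Krt8 and Krt18 (log2 means 10.96 and 10.80). In WT-KO they rest mainly on Tfap2c (9.82, against 9.69 in WT-WT). Cdx2 and Elf5 were under the floor. Of 12 fibroblast or mesenchyme markers 6 had a row and 5 were expressed, while Dcn, Lum, Postn, Twist2, Prrx1 and Fap had none. The sums were 236.7 to 275.4 in WT-WT and 137.5 to 149.9 in WT-KO. Acta2 (-3.29) and Pdgfra (-1.52) were called lower, and Thy1 (0.14), Fbln2 (-0.05) and Twist1 (-0.16) were not called. Acta2 passed the filter only through the Lin28a-intact groups, with medians of 3.17 in WT-KO and 3.31 in KO-KO, under the floor. Its place in the lower counts of both Lin28a comparisons thus follows in part from the filter. Of the 5 chondrocyte markers in the table, Sox9 and Comp were under the floor and 3 were expressed: Acan was lower (-0.16), and Matn1 (-0.22) and Matn3 (0.28) were not called. Stem cell markers were higher in 5 of 7 expressed genes, among them Nanog (0.86), while Zfp42 and Tdgf1 were not called. Fut4 reached the floor in too few libraries to be tested, with means of 3.27 in WT-WT and 2.88 in WT-KO. Of 6 erythroid or endothelial markers 3 were expressed, and 2 of these were called lower and 1 higher. In KO-KO minus KO-WT the counts were 7 lower and 1 higher of 10 for primitive endoderm, 6 lower of 7 for trophectoderm or epithelium, 2 lower of 5 for fibroblast and 3 higher of 7 for stem cell markers, beside 22.0% lower and 20.8% higher over all tested genes. The cells had been sorted for SSEA-1 before harvest. The part of these markers in the collagen differences was not tested, and in these bulk libraries fewer cells of a type and less RNA per cell cannot be told apart.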

How the data were processed

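Total RNA of 19 libraries was prepared with a kit that does not mark strand and sequenced in pairs, per the labels' protocols. The authors deposited 1 table of normalised values on a log2-like scale (from -0.712 to 16.30), in which other quantities such as read counts are not given; the scale was inferred from the values. The submitters' processing notes name CASAVA 1.8, STAR and DESeq2 without their roles; genome build, annotation and counting are not given in the sources used here. Harvest-day effects were already absent from the deposited values (largest day term 8.18e-09, against 1.12 with days shuffled), so harvest day, which pairs the genotypes, stayed in the model to keep the error estimate right. The 18 libraries were fitted together with limma 3.58.1 in R 4.3.3 (genotype means, harvest day, trended moderated variance, 10 residual degrees of freedom) on the 14988 genes at log2(10) or more in at least 4 libraries, with Benjamini-Hochberg adjustment at 0.05. On simulated data (200 of 14988 genes changed by 1 log2 unit, WT-KO minus WT-WT), the fit with day recovered 99.5% of changed genes with 4.76% false calls, and the fit without day gave 31.7% false calls. Levels per kilobase, GC content, positions and 3′UTRs came from GENCODE M21, matched by symbol, and microRNA sequences from RefSeq. Members, lists and alternatives were chosen with earlier results of these data known. Every collagen could be named, and every called member was named. Genes of the pathway and marker lists were named from those called or under the floor, with some that were not called. Alternatives covered the filter, scaling, day term, GC content, clones, days and each library left out.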

Additional observations from a re-analysis of the deposited data

Results flagged for a closer look

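In 3 of 92 groups of 4 or 5 libraries, 1 library stood far from the rest (largest gap over range beyond Dixon's 95% value), where about 1 in 20 groups, or 4.6, is flagged by chance. Col4a2 in WT-WT replicate 1 was 9.3774, against 9.7357 for the nearest WT-WT library. Col5a2 in WT-KO replicate 3 was 4.6479, against 4.2042 for the nearest. Col11a2 in KO-KO replicate 4 was 3.2293, against 3.3385 for the nearest.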

How the results depend on the processing

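Counts below are of all collagens called at an adjusted p of 0.05 by limma, and no call of a named gene changed direction. Over the 18 fits without 1 library, the count ranged from 2 to 5 for KO-WT minus WT-WT, 3 to 6 for KO-KO minus WT-KO, 11 to 14 for WT-KO minus WT-WT, 9 to 11 for KO-KO minus KO-WT, 14 to 17 for KO-KO minus WT-WT and 0 to 0 for the interaction. Without the replicate block (harvest day), the main day-blocked counts of 2 and 0 became 7 for KO-WT minus WT-WT and 1 for the interaction, and the others were 7, 15, 10 and 18 for KO-KO minus WT-KO, WT-KO minus WT-WT, KO-KO minus KO-WT and KO-KO minus WT-WT. With no filter on low values those 4 were 3, 20, 16 and 24. With a floor of log2(50) the counts were 0 for KO-WT minus WT-WT and 2, 5, 5 and 7 for the others, since fewer members are tested. Scaling by the 75th percentile or by a trimmed mean each left 3 in KO-KO minus WT-KO. The fit with the GC content and length trend removed called 5 in KO-WT minus WT-WT. Clones E3 and C1 alone gave 0, 0 and 7 for KO-WT minus WT-WT, KO-KO minus WT-KO and KO-KO minus WT-WT. Clones 1 and 1-4 alone gave 1 (Col20a1), 2 (Col4a1 and Col4a2, higher) and, for KO-KO minus KO-WT, 4. Only the days with all 4 genotypes gave 0 for KO-WT minus WT-WT and 1 for KO-KO minus WT-KO, and only the genotypes compared gave 0 for KO-WT minus WT-WT. Where not set by fewer libraries or genes, the cause was not tested. Calls of Col4a1, Col4a2 and Col4a5 in the 3 comparisons that differ in Lin28a were lost under none of the alternatives that could be fitted. The number of expressed collagens was 28 at log2(5), 19 at log2(20) and 23 when 1 or 9 libraries were required. Without read counts, the depth behind low values such as Col1a2 in Lin28a-null cells is unknown.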
